A study of Mus musculus with 7 samples.

Results

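The Fc receptors for IgG were examined as a family of 6 genes, namely Fcgr1, Fcgr2b, Fcgr3, Fcgr4, Fcer1g and Fcgrt, chosen by gene symbol among the 50686 genes listed in each expression table. Each symbol matched exactly 1 gene, and all 6 were among the 17559 genes tested. Microglia rich in lipid droplets (Bodipy+, after a dye for neutral lipids) had been sorted from the forebrain of 4 young male C57BL/6 mice aged 3 to 4 months and 3 old ones aged 21 to 22 months, all from Janvier. Every mouse, young and old, had undergone a middle cerebral artery occlusion of 45 min and received no drug to deplete microglia. All were studied 4 days later, and each library came from 1 mouse. The old mice carry the codes 2posI, 3posI and 4posI, and the young mice 14C, 18C, 23C and 29C. Polyadenylated RNA was read with a non-stranded Smart-seq2 protocol, and no group without ischemia was analysed here. Before the CD11b, CD45 and Bodipy stains, cells of both ages had been incubated with the antibody clone 2.4G2 against CD16/CD32, which are the products of Fcgr3 and Fcgr2b.

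Fc gamma receptors bind the constant part of IgG and link antibody-coated material to phagocytosis and to the release of inflammatory mediators by myeloid cells such as microglia. The activating receptors encoded by Fcgr1 (CD64, high affinity), Fcgr3 (CD16) and Fcgr4 (CD16-2) signal through the common gamma chain encoded by Fcer1g, whose immunoreceptor tyrosine-based activation motif (ITAM) recruits the kinase Syk. Fcgr2b (CD32B) encodes the inhibitory receptor, which carries an immunoreceptor tyrosine-based inhibition motif (ITIM), and Fcgrt encodes the neonatal receptor FcRn, which works inside cells with beta-2 microglobulin and returns IgG from endosomes.

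Short stretches of coding sequence show how these roles are divided, and why some reads of 1 pair of genes fit both. They were read from GENCODE vM21 transcripts on build GRCm38 and are written 5′ to 3′ along the gene. In the first pair, capitals mark the codons of the motif tyrosines. The activation motif of Fcer1g lies in 2 coding exons within chr1:171229889-171230072, minus strand, and the inhibition motif of Fcgr2b lies in 1 coding exon at chr1:170961071-170961088, minus strand. A search of the translated coding sequence found 1 activation motif in Fcer1g and 0 in Fcgr1, Fcgr3 and Fcgr4.
Fcer1g activation motif: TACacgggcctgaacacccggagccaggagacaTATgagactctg
Fcgr2b inhibition motif: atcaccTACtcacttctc

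The coding sequences of Fcgr3 and Fcgr2b were identical at 657 of 775 aligned bases (84.8%). Their longest identical run, 129 bases, is shown with 30 bases on either side, and capitals mark the bases that differ. It lies in 2 coding exons of each gene, within chr1:171054137-171057822 for Fcgr3 and chr1:170966644-170968111 for Fcgr2b, both on the minus strand.
Fcgr3: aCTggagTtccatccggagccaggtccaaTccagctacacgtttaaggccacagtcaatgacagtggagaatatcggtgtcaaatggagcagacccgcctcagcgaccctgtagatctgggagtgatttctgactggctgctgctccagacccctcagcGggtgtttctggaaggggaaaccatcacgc
Fcgr2b: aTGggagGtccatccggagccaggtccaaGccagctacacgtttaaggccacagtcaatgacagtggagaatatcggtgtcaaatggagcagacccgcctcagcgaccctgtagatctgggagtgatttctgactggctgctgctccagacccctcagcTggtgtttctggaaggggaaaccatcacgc

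Over all annotated transcripts, Fcgr2b and Fcgr3 shared 166 windows of 50 bases, which is 2.92% of the windows of Fcgr2b and 9.58% of those of Fcgr3, and no other pair among the 6 genes shared any. The expected counts of both genes were fractional in every library, whereas their sum was a whole number in 7 of 7 libraries within a tolerance of 0.02. Reads had therefore been divided between these 2 genes, and values of each carry that division. The expected counts of Fcgr1, Fcgr4, Fcer1g and Fcgrt were whole numbers in all 7 libraries.

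Total expected counts ranged from 36574083 to 53002386 per library, and the 6 genes took from 0.351% (23C) to 0.559% (2posI) of them. The sorted cells had the profile of microglia, since the 10 microglia markers summed to between 10684 CPM and 30310 CPM. CPM are counts divided by the library total in units of 1e+06 reads, after scaling with TMM factors. Old mouse 3posI stood apart. Its microglia markers (10684 CPM) were the lowest and its 6 monocyte markers summed to 1934 CPM, led by Chil3, against at most 75.6 CPM in young mice and 64.9 and 101 CPM in the other old mice. The 6 markers of border-associated macrophages, which also live in the brain and are led here by F13a1, summed to 1081 CPM in 3posI, against 69.7 to 364 CPM in young mice and 101 and 363 CPM in the other old mice. Of these, F13a1, Pf4, Cbr2 and Lyve1 were highest in 3posI (500, 315, 149 and 15.4 CPM). Mrc1 (78.8 CPM in 3posI) and Cd163 (23.2 CPM) were not, being higher in 2posI (79.2 and 27.4 CPM). Young mouse 23C had the second lowest microglia markers (18808 CPM), with monocyte markers at 24.5 CPM. In bulk libraries, fewer cells of a type and less RNA per cell cannot be told apart.

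None of the 6 genes passed the test between the ages in these ischemic males. With the quasi-likelihood test of edgeR and Benjamini-Hochberg adjustment over all genes, 0 of 6 had an adjusted p under 0.05, against 141 of 17559 genes (0.803%). limma-voom and DESeq2 also called 0 of 6. An unadjusted p under 0.05 was reached by 1 gene with edgeR and 1 with limma-voom, Fcgr4 in both, and by 2 with DESeq2, Fcgr4 and Fcer1g. Over all genes tested, 10.1% had an unadjusted edgeR p under 0.05 with the higher level in old mice. The fitted difference was above 0 for 6 of 6 genes, while 48.8% of all genes tested lay above 0. The median log2 fold change (old minus young) was 0.29 over the 6 genes and -0.01 over all genes. The 6 values come from the same 7 libraries and are not independent of each other.

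**Figure D1:**
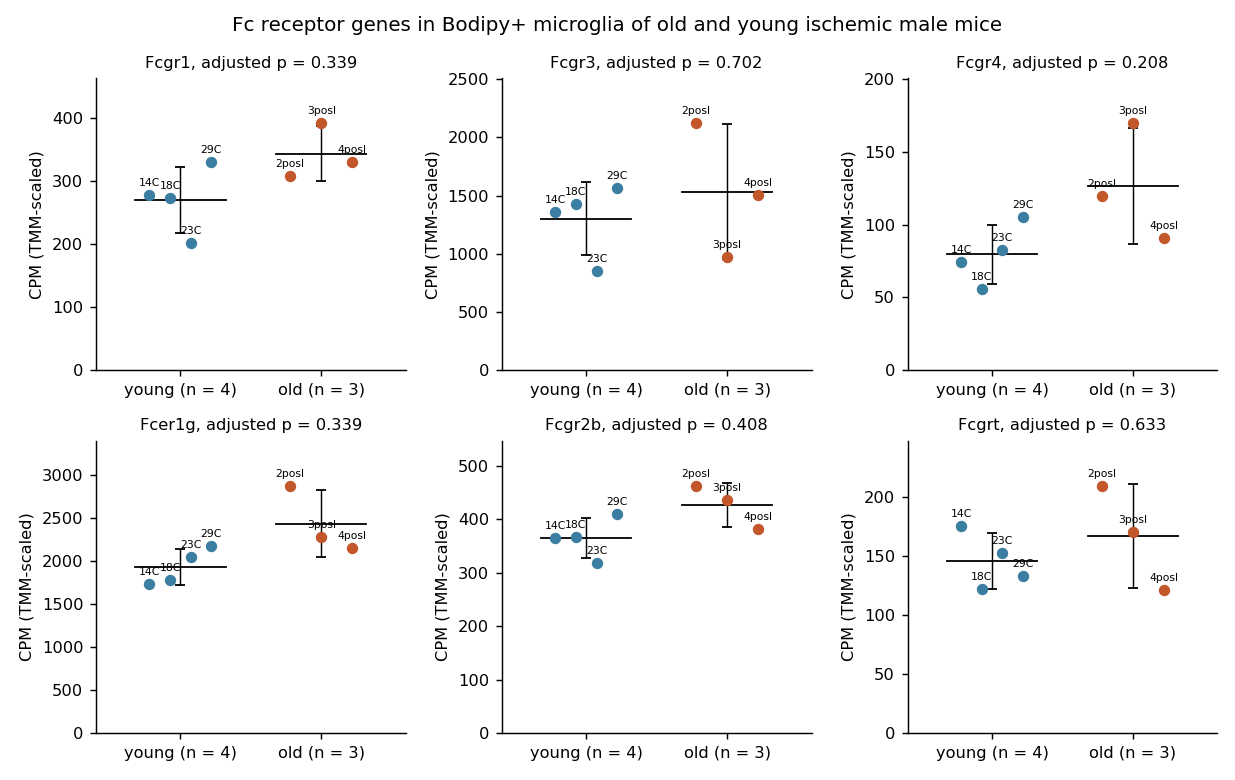
TMM-scaled CPM of the 6 Fc receptor genes (vertical axes, starting at 0) in Bodipy+ microglia, with 1 point per library labelled by mouse code, the mean as a horizontal line and the SD as a bar, for 4 young and 3 old mice. The ages overlapped for each of the 6 genes, and Fcgr4 had the largest fitted difference (log2 fold change 0.67, adjusted p = 0.208).

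Fcgr1 (ENSMUSG00000015947, chr3:96282909-96293969, minus strand) encodes the receptor that binds monomeric IgG with high affinity. Its level was 277, 272, 202 and 329 CPM in young mice 14C, 18C, 23C and 29C, and 308, 392 and 329 CPM in old mice 2posI, 3posI and 4posI. The highest old mouse was 3posI and the lowest young mouse was 23C, and 2posI and 4posI lay within the young range. The means were 270.1 ± 52.3 CPM (SD, n = 4) in young and 343 ± 43.4 CPM (SD, n = 3) in old mice. The log2 fold change was 0.34 ± 0.18 (SE), with a 95% interval from -0.07 to 0.75 and an edgeR adjusted p of 0.339. Without young mouse 23C it was 0.23.

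Fcgr3 (ENSMUSG00000059498, chr1:171051174-171064935, minus strand), the most abundant ligand-binding receptor gene, varied most among the old mice. Its level was 1360, 1426, 853 and 1567 CPM in young mice 14C, 18C, 23C and 29C, and 2123, 972 and 1507 CPM in old mice 2posI, 3posI and 4posI. Old mouse 2posI was above every young mouse, whereas 3posI lay below 3 of the 4 young mice, and the lowest mouse of each age was the one with the lowest microglia markers of that age. Means were 1302 ± 311 CPM (SD, n = 4) and 1534 ± 576 CPM (SD, n = 3) in young and old mice, with a coefficient of variation of 23.9% and 37.6%. The log2 fold change was 0.24 ± 0.29 (SE), with a 95% interval from -0.43 to 0.91 and an edgeR adjusted p of 0.702. A single old library set its direction, since the log2 fold change was -0.07 without 2posI and 0.48 without 3posI. The part of the microglia and monocyte content of the libraries in these values was not tested. Summing the counts of Fcgr2b and Fcgr3, which removes their division, gave a log2 fold change of 0.23 ± 0.25 (SE) and an edgeR adjusted p of 0.653.

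Fcgr4 (ENSMUSG00000059089, chr1:171018920-171029761, plus strand) encodes a receptor of intermediate affinity for mouse IgG2 that is a hallmark of monocytes, macrophages and neutrophils. Its level was 74.7, 55.8, 82.6 and 105 CPM in young mice 14C, 18C, 23C and 29C, and 119, 170 and 90.8 CPM in old mice 2posI, 3posI and 4posI. Old mice 2posI and 3posI were above every young mouse, and 4posI was below young mouse 29C. The means were 79.6 ± 20.4 CPM (SD, n = 4) and 127 ± 40.1 CPM (SD, n = 3), a fold of 1.59. The log2 fold change of 0.67 ± 0.25 (SE) had a 95% interval from 0.09 to 1.25 and an unadjusted p of 0.0281, which became 0.208 in the edgeR adjustment over all genes. The highest value was that of 3posI, the library with the most monocyte marker signal, and without 3posI the log2 fold change was 0.40. The 7 neutrophil markers, led by S100a8, summed to 16.7 to 130 CPM in young and 47.3 to 157 CPM in old mice, with 3posI highest among the old and 29C among the young, and Ly6g, which defines neutrophils, was between 0 and 0.311 CPM in the 7 libraries. Among the old mice, S100a8, S100a9 and Mmp8 were highest in 3posI (66.0, 26.7 and 59.9 CPM). Ngp and Camp were lowest in 3posI (1.79 and 0.741 CPM) and highest in 4posI (13.1 and 4.60 CPM). Retnlg and Ly6g were highest in 2posI (4.08 and 0.311 CPM). In young mouse 29C, Ngp and Camp were at 17.4 and 5.03 CPM. The part of monocytes and neutrophils in the Fcgr4 values was not tested.

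Fcer1g (ENSMUSG00000058715, chr1:171229572-171234365, minus strand), the signalling chain, had the highest level of the family. It stood at 1732, 1772, 2043 and 2167 CPM in young mice 14C, 18C, 23C and 29C, and at 2871, 2273 and 2149 CPM in old mice 2posI, 3posI and 4posI. Only 4posI fell within the young range, just under 29C. Means of 1928 ± 211 CPM (SD, n = 4) and 2431 ± 386 CPM (SD, n = 3) gave a log2 difference of 0.33 ± 0.17 (SE), with a 95% interval from -0.06 to 0.73 and an edgeR adjusted p of 0.339. The log2 fold change was 0.20 without 2posI, the highest library.

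Fcgr2b (ENSMUSG00000026656, chr1:170958617-170976547, minus strand), the inhibitory receptor, was the steadiest of the 6 genes between mice. Its level was 365, 367, 318 and 409 CPM in young mice 14C, 18C, 23C and 29C, and 463, 435 and 383 CPM in old mice 2posI, 3posI and 4posI. Old mice 2posI and 3posI were above every young mouse and 4posI was below 29C. The coefficient of variation was 10.2% in young and 9.60% in old mice, around means of 365 ± 37.2 CPM (SD, n = 4) and 427 ± 41.0 CPM (SD, n = 3). The log2 fold change was 0.23 ± 0.14 (SE), with a 95% interval from -0.09 to 0.54 and an edgeR adjusted p of 0.408.

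Fcgrt (ENSMUSG00000003420, chr7:45092990-45103851, minus strand) had both its highest and its lowest level in old mice. Its level was 176, 122, 152 and 133 CPM in young mice 14C, 18C, 23C and 29C, and 209.6, 171 and 121 CPM in old mice 2posI, 3posI and 4posI. The highest was 2posI and the lowest was 4posI, next to young mouse 18C, so the young mice lay between them. Means were 146 ± 23.6 CPM (SD, n = 4) and 167 ± 44.2 CPM (SD, n = 3), and the log2 fold change was 0.20 ± 0.20 (SE), with a 95% interval from -0.26 to 0.66 and an edgeR adjusted p of 0.633. It was 0.00308 without 2posI and 0.38 without 4posI.

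**Figure D2:**
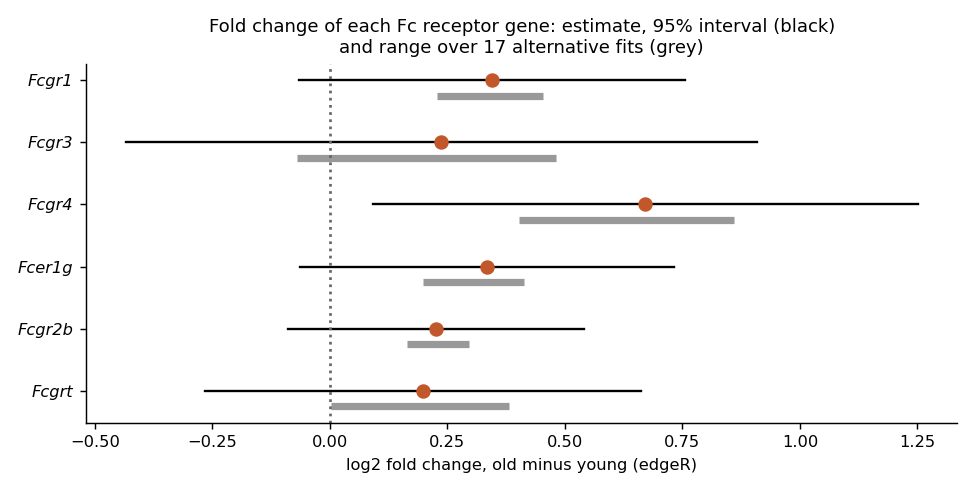
Log2 fold change of each Fc receptor gene, old minus young (horizontal axis), from edgeR, with the estimate as a point, its 95% interval as a black line and the range over 17 alternative fits as a grey bar. The interval excluded 0 for Fcgr4 alone (0.09 to 1.25, before adjustment over all genes), and the grey bar crossed 0 for Fcgr3 alone.

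Compared per length, the transcripts formed a steep order. TPM values divide the reads of a gene by its transcript length and are scaled to the same total in every library, so they allow one gene to be set against another. Fcer1g was highest in 7 of 7 libraries (3873 to 4618 TPM in young, 4619 to 5627 TPM in old mice) and Fcgr3 was next in 7 of 7 (931 to 1587 TPM in young, 954 to 2007 TPM in old mice). Fcgr2b followed with 288 to 344 TPM in young and 366 to 372 TPM in old mice. Fcgr1 was below Fcgr2b in all 7 libraries, at 205 to 317 TPM in young and 288 to 365 TPM in old mice, although their ranges overlapped among young mice. Fcgrt (108 to 157 TPM in young, 109 to 158 TPM in old) and Fcgr4 (66.6 to 114 TPM in young, 107 to 179 TPM in old) held the lowest places and could not be ordered, with Fcgrt above Fcgr4 in 5 of 7 libraries. By FPKM the order within each library was the same in 7 of 7.

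**Figure D3:**
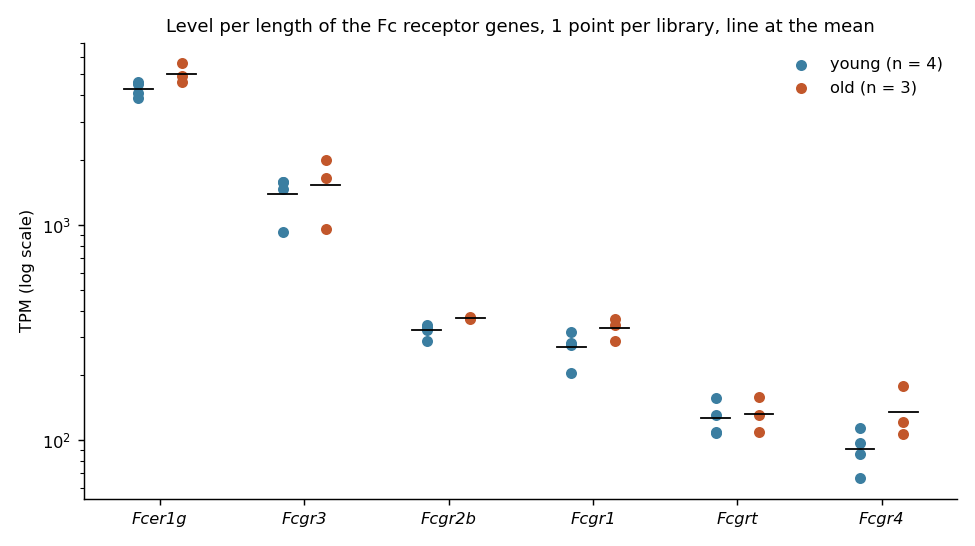
TPM of the 6 Fc receptor genes on a log axis, ordered by level, with 1 point per library and a line at the mean of 4 young and 3 old mice. Fcer1g (3873 to 5627 TPM) lay above every other gene in each library, and Fcgr4 and Fcgrt shared the lowest range.

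Among the 4 receptors that bind IgG at the cell surface, Fcgr3 made up 61.2% to 69.7% of the summed TPM in young and 51.1% to 72.0% in old mice. Fcgr2b made up 14.3% to 19.0% and 13.4% to 19.8%, Fcgr1 12.2% to 13.5% and 10.3% to 19.6%, and Fcgr4 2.93% to 6.36% and 4.33% to 9.58%, in young and old mice respectively. The old mouse with the smallest share of Fcgr3 and the largest shares of Fcgr1 and Fcgr4 was 3posI. The transcript of the gamma chain exceeded those of its 3 receptor partners together in every library. Fcer1g was 2.11 to 3.75 times the summed TPM of Fcgr1, Fcgr3 and Fcgr4 in young and 2.32 to 3.09 times in old mice, highest in 23C and 3posI, a ratio that was chosen after its values were seen.

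In TPM, unlike CPM, Fcgr2b and Fcer1g did not overlap between ages. All 3 old mice were above all 4 young mice for 2 of 6 genes in TPM (6.26% of all genes tested) and for 0 of 6 in CPM (8.67% of all genes tested). For Fcgr2b, the young mice had 326, 344, 288 and 336 TPM and the old mice 372, 369 and 366 TPM, in the order of codes given above. For Fcer1g, the highest young mouse (23C, 4618 TPM) and the lowest old mouse (3posI, 4619 TPM) were next to each other. Neither passed limma on log2(TPM + 1), with an adjusted p of 0.355 for Fcgr2b and 0.579 for Fcer1g. The effective length of Fcgr2b, an average over its transcripts weighted by the authors' estimate of their shares, was 1539 to 1592 bases in young and 1492 to 1522 bases in old mice, so the ages did not overlap. This was noticed in the data and not tested, and it held for 1 of the 6 genes and for 4.23% of all genes tested.

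For the balance between activating and inhibitory receptors, no difference between ages was detected beyond the spread between mice. For Fcgr1 over Fcgr2b, the ratio of TPM was 0.868, 0.810, 0.711 and 0.944 in young mice 14C, 18C, 23C and 29C, and 0.773, 0.990 and 0.942 in old mice 2posI, 3posI and 4posI. The highest and the lowest ratios were found in 3posI and 23C, and the other old mice lay within the young range. For Fcgr3 over Fcgr2b the ratio was 4.50, 4.62, 3.23 and 4.71 in young and 5.39, 2.59 and 4.54 in old mice. Old mice held both the highest ratio (2posI) and the lowest (3posI), and this ratio uses the 2 genes between which reads had been divided. For Fcgr4 over Fcgr2b the ratio was 0.265, 0.194, 0.336 and 0.339 in young and 0.325, 0.485 and 0.293 in old mice, of which only 3posI was above the young range.

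Exact two-sided permutation tests (the smallest p that 3 against 4 mice allow is 0.0286) were run on the 3 log2 ratios. After adjustment over the 3 ratios, 1 ratio alone could not fall under 0.05 even if it separated the ages completely. The log2 difference, old minus young, was 0.11 for Fcgr1 over Fcgr2b (exact permutation p = 0.486, adjusted over 3 ratios 0.729), -0.08 for Fcgr3 (exact permutation p = 0.771, adjusted 0.771) and 0.38 for Fcgr4 (exact permutation p = 0.314, adjusted 0.729). For Fcgr3 the sign depended on 1 library, the difference being 0.23 without 3posI. The summed activating receptors, Fcgr1, Fcgr3 and Fcgr4, stood at 5.63, 5.62, 4.28 and 5.99 times Fcgr2b in young mice and at 6.49, 4.06 and 5.78 times in old mice. The means of this summed ratio were 5.38 ± 0.755 (SD, n = 4) and 5.44 ± 1.25 (SD, n = 3), and it was not tested.

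**Figure D4:**
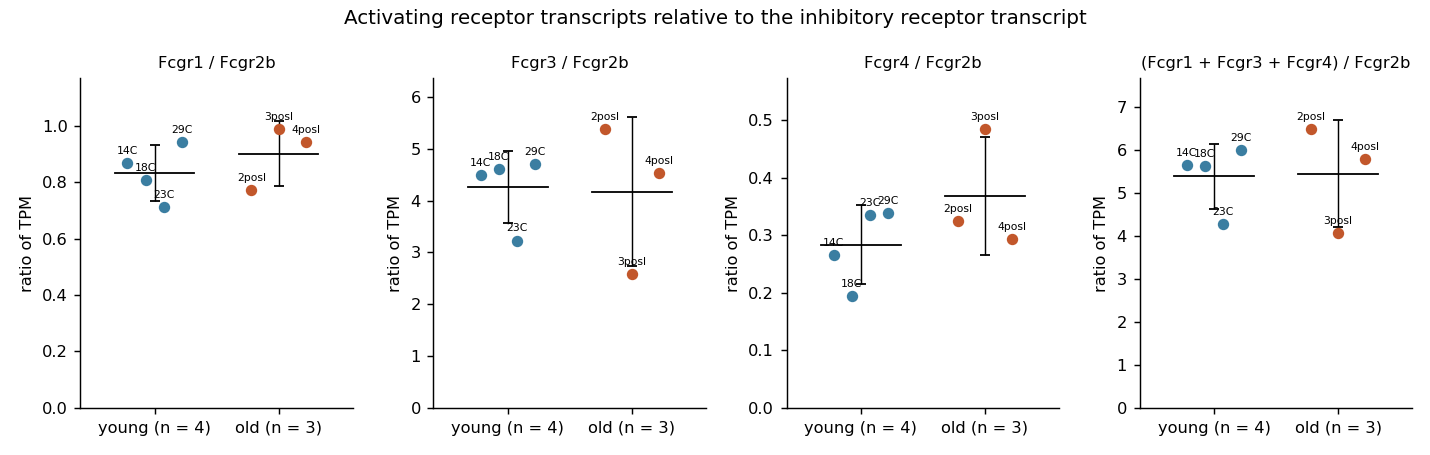
Ratio of TPM of each activating receptor gene, and of their sum, to the inhibitory receptor gene Fcgr2b (vertical axes, starting at 0), with 1 point per library, the mean as a line and the SD as a bar, for 4 young and 3 old mice. The ages overlapped in all 4 panels, and 3posI had the lowest Fcgr3 ratio (2.59) and the highest Fcgr4 ratio (0.485).

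The receptors lie in 3 places of the genome, with Fcgr2b, Fcgr4, Fcgr3 and Fcer1g close together on chromosome 1. The span from the first to the last of these 4 genes, with 100 kb on either side (chr1:170858617-171334365), held 21 other tested genes. None of the 21 was called, 2 had an unadjusted p under 0.05, Ppox and Dedd, both lower in old mice, and their median log2 fold change was -0.05 with 10 above 0. The 4 Fc receptor genes of the span had a median of 0.29 with 4 of 4 above 0, and the difference between them and their neighbours was not tested. Annotated genes that overlap a receptor gene carried almost no reads. Gm38204, antisense to Fcgr2b, Gm45669, antisense to Fcgrt, and Mir6546 within Fcgr3 had 0 counts in every library, and Gm26110 within Fcgr4 had at most 2.

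The genes most correlated with each receptor over the 7 libraries were picked by that value, so a high r comes in part from the choice. Among 8145 other genes with a mean of at least 10 CPM, Fcgr1 was nearest to Tep1 (Pearson r 0.971), S100a9 (0.969) and Rbm17 (0.963) in log2 CPM. Fcgr2b was nearest to genes of the lysosome, Gm2a (GM2 ganglioside activator, r 0.985) and Ctss (cathepsin S, r 0.981), and to Tmem258 (r 0.980). Fcgr3 was nearest to Clec5a, a myeloid lectin receptor (r 0.983), and Gng10, a G protein subunit (r 0.980). Fcgr4 was nearest to Tspo, the mitochondrial translocator protein (r 0.991), Ddx24 (r 0.987) and Rpf2 (r 0.983). Fcer1g was nearest to Pfdn1 (r 0.991), Ndufs3 (r 0.991), a subunit of respiratory complex I, and Park7 (r 0.990). Fcgrt was nearest to Ino80e (r 0.943), Fcna (r 0.932), which encodes ficolin A, and Atg12 (r 0.923). These correlations describe 7 libraries of 2 ages, which share the scaling of each library, and no test was made of them. None of these genes passed the test between ages.

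The genes that work with the receptors are given beside the share of all genes tested, of which edgeR called 0.803%. Of 14 partners and other antibody receptors, 8 were tested and 0 were called by edgeR (1, Fcrls, by DESeq2), with 5 above and 3 below 0 and a median log2 fold change of 0.59. That median was the same with Fcer1a, at 0 in all young libraries, put at the bound of 3 counts per library. B2m, the partner of FcRn, had 3857 to 6259 CPM in young and 5638 to 7573 CPM in old mice (log2 fold change 0.39 ± 0.23 SE, edgeR adjusted p = 0.395). Fcrls, an Fc receptor-like gene that marks microglia, pointed the other way. It had 3477, 3747, 4178 and 4212 CPM in young mice 14C, 18C, 23C and 29C, and 3090, 1551 and 2514 CPM in old mice 2posI, 3posI and 4posI. All 3 old mice were below all young mice, with 3posI lowest, and 17.7% of all genes tested separated the ages in either direction. The log2 fold change of -0.71 ± 0.25 (SE) had an unadjusted edgeR p of 0.0185 and an edgeR adjusted p of 0.176. It was -0.48 without 3posI (edgeR adjusted p = 0.246) and -0.94 without 2posI (edgeR adjusted p = 0.185). With all libraries, DESeq2 put the adjusted p of Fcrls at 0.0394. Fcrlb had 0.844 to 0.962 CPM in young mice and 0.805, 3.86 and 1.04 CPM in old mice 2posI, 3posI and 4posI (edgeR adjusted p = 0.332).

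Of the 8 antibody chain genes, which encode the ligands, 5 were tested and 1 was called by edgeR. The IgG heavy chains were at or near the floor. Ighg1, Ighg2c and Ighg3 had 0 counts in every library, which allows up to 3 counts in each, and Ighg2b had 0.0196 to 0.268 CPM in young and 0.230 to 0.656 CPM in old mice (edgeR adjusted p = 0.365). Igkc, the constant part of the kappa light chain, rose in old mice (edgeR adjusted p = 0.0458), with 0, 0, 6 and 1 counts in young mice 14C, 18C, 23C and 29C, and 1514, 306 and 35 counts in old mice 2posI, 3posI and 4posI. The call was lost with limma-voom (adjusted p = 0.370), with limma on TPM, and without any 1 of the young libraries or 2posI. Igha, the IgA heavy chain, had 0 counts in all young mice and 1354, 374 and 0 counts in old mice 2posI, 3posI and 4posI (edgeR adjusted p = 0.128). Jchain, which joins IgA and IgM units, had 1, 1, 6 and 0 counts in young mice and 285, 70 and 3 in old mice (edgeR adjusted p = 0.0851). DESeq2 called Igha (adjusted p = 0.0165) and Jchain (0.00425) as well. The signal of these 3 genes was thus highest in 2posI and next in 3posI. Of the 5 plasma cell markers, Mzb1 was at 0 to 0.0645 CPM in young and 0.204 to 0.447 CPM in old mice, and the 5 summed to 221 to 252 CPM and 210 to 327 CPM, led by Xbp1, which other cells also use. Derl3 did not follow Mzb1, with 1.06 to 1.83 CPM in young and 0.745 to 1.40 CPM in old mice. Sdc1 had 0.649 to 2.69 CPM in young mice, and 0.507, 20.5 and 1.01 CPM in old mice 2posI, 3posI and 4posI. The part of plasma cells in the counts of Igkc, Igha and Jchain was not tested. Ighm, the IgM heavy chain, had 35.4 to 185 CPM in young and 71.2 to 270 CPM in old mice (edgeR adjusted p = 0.671). The fitted median of the list, 6.27 on the log2 scale with or without Igha at its bound, rests on Jchain, which had at most 6 counts in a young library.

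Downstream of the receptors, 38 genes were listed as ITAM kinases, ITAM effectors or inhibitory phosphatases and adaptors. Of these, 36 were tested, 0 were called by edgeR and by limma-voom, 19 were above 0, and the median log2 fold change was 0.06. An unadjusted p under 0.05 was found for 7 of 36, against 18.9% of all genes tested. DESeq2, which called 1399 genes in all, called 4 of the 36, namely Pik3cb, Lat2, Csk and Ptpn22. Btk and Was lie on chromosome X and were not tested.

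Among the kinases, of which 7 were tested (2 above and 5 below 0, median log2 fold change -0.01), Fgr had 102.7 CPM in 3posI and 19.1 to 30.0 CPM in the other 6 libraries (log2 fold change 1.09 ± 0.42 SE, edgeR adjusted p = 0.217). Without 3posI its log2 fold change was 0.22 (edgeR adjusted p = 0.560). Src had 12.4 to 24.7 CPM in young and 6.54 to 14.5 CPM in old mice (edgeR adjusted p = 0.404). Syk, which binds the phosphorylated ITAM and was named for this role after its values were seen, had 86.7 to 114 CPM in young and 80.5 to 116 CPM in old mice (log2 fold change -0.11, edgeR adjusted p = 0.777).

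Among the effectors, of which 18 were tested (10 above and 8 below 0, median 0.11), Pik3cb came closest to the threshold. This gene for the beta catalytic subunit of PI3-kinase had 16.8, 15.7, 17.5 and 13.5 CPM in young mice 14C, 18C, 23C and 29C, and 23.4, 30.2 and 29.8 CPM in old mice 2posI, 3posI and 4posI. All old mice were above all young mice, the log2 fold change being 0.81 ± 0.15 (SE) with an edgeR adjusted p of 0.0524. It passed with DESeq2 (adjusted p = 0.000208), without the filter on low counts (0.0410), and with a filter that required 3 libraries (0.0464). Its log2 fold change was 0.32 with the effective length as an offset (edgeR adjusted p = 0.349), and 0.19 and 0.22 with limma on log2(TPM + 1) and log2(TPM + 0.1) (adjusted p = 0.644 and 0.635). Lat2, an adaptor close to LAT, had 222 to 260.0 CPM in young and 300.4 to 307 CPM in old mice (log2 fold change 0.38 ± 0.12 SE, edgeR adjusted p = 0.141, DESeq2 adjusted p = 0.0124). The delta catalytic subunit gene Pik3cd, the form that leukocytes favour, had 94.2 to 139 CPM in young and 81.8 to 100.3 CPM in old mice (edgeR adjusted p = 0.302).

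Of the 11 inhibitory phosphatases and adaptors, 7 were above and 4 below 0, with a median log2 fold change of 0.26. Csk, the kinase that restrains the Src family, had 49.5 to 69.3 CPM in young and 78.1 to 83.5 CPM in old mice (log2 fold change 0.46 ± 0.13 SE, edgeR adjusted p = 0.128). Its partner phosphatase gene Ptpn22 had 1.16 to 2.88 CPM in young and 3.22 to 7.08 CPM in old mice (log2 fold change 1.25 ± 0.38 SE, edgeR adjusted p = 0.139), and the log2 fold change was 0.73 with limma on log2(TPM + 1). Inppl1, encoding the lipid phosphatase SHIP2, had 43.1 to 64.9 CPM in young and 33.7 to 39.3 CPM in old mice (log2 fold change -0.50 ± 0.16 SE, edgeR adjusted p = 0.163). For each of these 3 of 11 genes the ages did not overlap, as for 17.7% of all genes tested in either direction, and DESeq2 called Csk (adjusted p = 0.0335) and Ptpn22 (0.0268). Inpp5d, which encodes SHIP1, the phosphatase recruited by the inhibition motif of Fcgr2b, was named for its role after its values were seen. It had 585 to 819 CPM in young and 552 to 684 CPM in old mice (log2 fold change -0.27, edgeR adjusted p = 0.403).

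**Figure D5:**
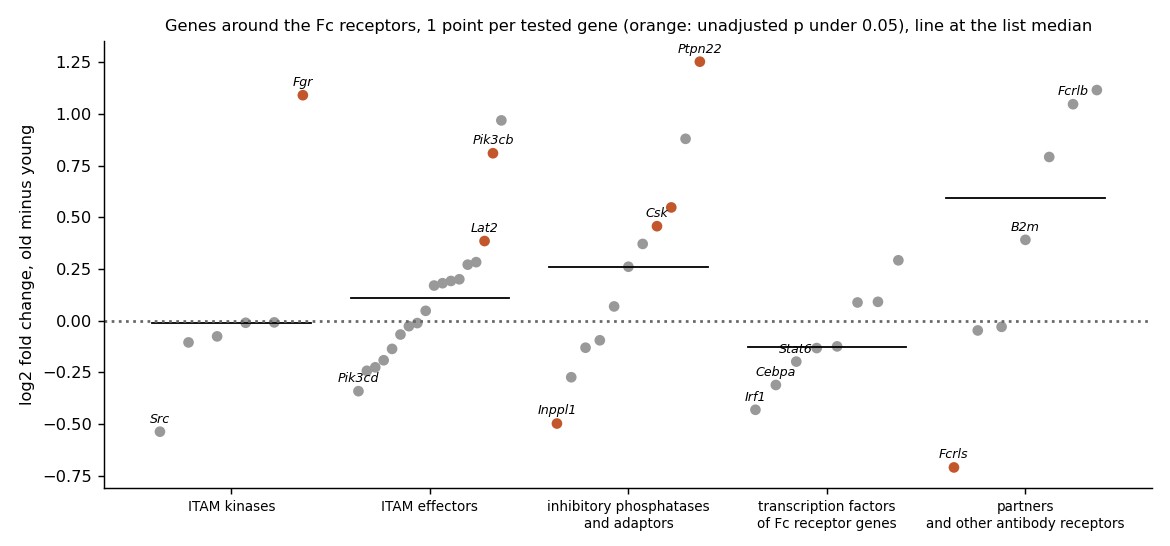
Log2 fold change, old minus young (vertical axis), of the tested genes of 5 lists around the Fc receptors, with 1 point per gene in ascending order, orange where the unadjusted edgeR p was under 0.05, and a line at the median of all tested genes of the list. Fcer1a, with 0 counts in all young libraries, is not drawn, nor are genes that are not reported here, and none of the genes drawn passed the adjusted threshold with edgeR as in the main test, Pik3cb being the nearest (adjusted p = 0.0524), whereas DESeq2 called Pik3cb, Lat2, Csk, Ptpn22 and Fcrls.

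Transcription factors known to act on Fc receptor genes gave no call with edgeR, limma-voom or DESeq2. All 8 were tested, and 0 had an unadjusted edgeR p under 0.05, against 18.9% of all genes tested. A list of 8 genes is small for such a share. Of the 8, 3 were above and 5 below 0, with a median log2 fold change of -0.13. Irf1, a factor of the interferon response, had 84.8 to 108 CPM in young mice and 55.4, 57.1 and 103 CPM in old mice 2posI, 3posI and 4posI (edgeR adjusted p = 0.337). Cebpa had 145 to 225 CPM in young and 126 to 165 CPM in old mice (edgeR adjusted p = 0.378), and Stat6 had 148 to 182 CPM and 126 to 165 CPM (edgeR adjusted p = 0.471).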

How the data were processed

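Per the labels and the methods, the authors used skewer for trimming, STAR for mapping to GRCm38 and RSEM for quantification on GENCODE m15, and the processing notes also name FastQC 0.11.5 and limma. For STAR and RSEM no version is given in the sources used here. The authors deposited expected counts (not normalized), TPM and FPKM, both scaled within a library, and lengths. Expected counts were rounded, and 17559 autosomal genes whose expected count exceeded 10 in 1 library or more were tested in R 4.3.3 with edgeR 4.0.16 (TMM, age group as the only term, call at adjusted p under 0.05). Log2 CPM have a prior count of 1. Library totals were 36574083 to 53002386, and no molecular identifiers were named, so PCR copies count as reads. Nothing says how mice were batched, and p-values measure the spread between mice. Alternatives used limma 3.58.1, DESeq2 1.42.0, other factors, filters and pseudocounts, and left out each library. Coordinates come from GENCODE vM21 (same build, later release).

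The receptors, gene lists and marker lists were chosen with earlier results of these data known. The naming rule took all 6 receptors, called list genes and the 3 smallest p per list at a mean of at least 1 CPM, the 3 most correlated genes per receptor, and the most abundant marker per list. Ppox, Dedd, Syk, Inpp5d, Btk, Was and markers other than the most abundant fall outside it. Some genes that the rule selects are not reported here.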

Additional observations from a re-analysis of the deposited data

Results flagged for a closer look

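Among the 4 young mice, the values of 33 genes or ratios were checked for a library far from the others, of which chance alone would mark about 1.65. The log2 ratio of Fcgr3 to Fcgr2b (TPM) was 1.69 in 23C against 2.17 to 2.23 in the other young mice, a gap of 0.882 of the range. Lat2 had 260.0 CPM in 29C against 222 to 223 CPM in the others, a gap of 0.970 of the range.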

How the results depend on the processing

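In 101 of 102 alternative fits, 17 for each of the 6 receptor genes, the log2 fold change stayed above 0, and the adjusted p ranged from 0.112 to 0.996. The exception was Fcgr3 without old mouse 2posI (-0.0704), where 5 of 6 genes were above 0. With 1 library left out in turn, log2 fold changes ran from 0.23 to 0.45 for Fcgr1, 0.16 to 0.30 for Fcgr2b, -0.0704 to 0.48 for Fcgr3, 0.40 to 0.86 for Fcgr4, 0.20 to 0.41 for Fcer1g and 0.00308 to 0.38 for Fcgrt. The cause of these shifts was not tested. The number of the 6 genes called was 0 in each fit.

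The 3 log2 ratios kept their sign in the alternatives tried, except Fcgr3 over Fcgr2b without old mouse 3posI (0.23). Their ranges with 1 library left out were 0.04 to 0.22 for Fcgr1, -0.30 to 0.23 for Fcgr3 and 0.16 to 0.52 for Fcgr4, and -0.14 to 0.20 for the summed ratio.

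Over all genes, 141 were called by edgeR, 143 by limma-voom, 1399 by DESeq2, 288 without the filter on low counts, 64 and 71 with limma on log2(TPM + 1) and log2(TPM + 0.1), and 1 to 159 with 1 library left out, so calls of single genes rest on few mice. No paired analysis was possible because the 2 ages are different mice and nothing in the labels pairs them. The form of the mouse codes differed with age, ending in C in young and in posI in old mice. Any batch that followed the codes could not be told apart from age.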

Other observations

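The other marker lists, as sums of CPM over their markers, were as follows, and their part in the receptor values was not tested. The 6 dendritic cell markers, led by Itgax, which other myeloid cells also express, summed to 19.9 to 32.7 CPM in young and 52.5 to 59.0 CPM in old mice, so the ages did not overlap. Itgax, most of this sum, had means of 22.4 CPM in young and 44.8 CPM in old mice. The means of Flt3, Clec9a and Cd209a were also higher in old mice. Those of Zbtb46 (3.26 CPM in young, 1.85 CPM in old mice) and Xcr1 (0.836 and 0.599 CPM) were lower. The 5 NK cell markers summed to 0.491 to 1.53 CPM in young and 0.298 to 3.19 CPM in old mice, led by Klrd1. The 5 B cell markers summed to 14.8 to 22.6 CPM and 9.65 to 21.7 CPM, nearly all of it Cd79b, with Pax5 at 0 in every library. The 6 T cell markers summed to 1.33 to 10.3 CPM and 3.39 to 10.7 CPM, led by Cd4, which overlapped between ages. The other T cell markers were near the floor. Trac had 0 to 0.0785 CPM in young and 0.119 to 0.792 CPM in old mice. Cd8a had 0 to 0.0196 CPM in young and 0.256 to 0.518 CPM in old mice. Cd3e, Cd3d and Cd3g had at most 0.0392 CPM in young mice and 0 in 2posI, against 0.256 to 0.562 CPM in 3posI and 4posI. The 5 mast cell markers, which include Fcer1a, summed to 0 to 2.14 CPM and 0.0216 to 0.656 CPM, led by Tpsb2. Markers of endothelial cells, led by Cldn5, summed to 58.2 to 105 CPM and 48.2 to 67.0 CPM, those of astrocytes, led by Slc1a3, to 92.0 to 117 CPM and 49.6 to 156 CPM, those of oligodendrocytes, led by Mbp, to 44.6 to 50.2 CPM and 43.2 to 61.6 CPM, and those of neurons, led by Rbfox3, to 2.29 to 4.14 CPM and 1.20 to 3.49 CPM, in young and old mice respectively.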
